A study of Mus musculus with 69 samples.

Results

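The E2F and retinoblastoma family was followed here through 10 genes of the 18194 that the array reads with a probe set of their own, chosen by name: the activators E2f1 and E2f3, the repressor E2f5, the atypical repressors E2f7 and E2f8, the pocket proteins Rb1, Rbl1 and Rbl2, and the DP partners Tfdp1 and Tfdp2. They have 24 of the 34958 probe sets with 1 gene, and each gene is represented by its brightest probe set, taken over all cells. The material is 69 cells of the dorsal forebrain of CD1 mice at embryonic day 14, each picked by hand, amplified and put on an array of its own, with no genotype or treatment stated for any of them. By source label 66 cells came from the ventricular and subventricular zones (VZ/SVZ), where progenitors divide, and 3 from the cortical plate (CP), where neurons settle. The titles also carry a letter whose meaning the labels do not give: A on 7 cells, B on 14, C on 7, D on 7, X on 31 and E on the 3 CP cells. No label names an animal or litter, so each group is 1 sample of cells, no test between groups is possible, and every difference below describes these cells.

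E2F factors bind the promoters of genes needed for DNA replication, most of them as a pair with a DP protein. Pocket proteins hold E2Fs in check until cyclin-dependent kinases phosphorylate them late in G1, and the activators then drive entry into S phase. The atypical E2f7 and E2f8 need no DP partner, do not bind pocket proteins and shut the programme down again after S phase begins. In the embryonic cortex the pathway is known for its part in the step from dividing progenitor to postmitotic neuron.

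Cells were classed by Mki67, made in all dividing cells, and by Tubb3, a tubulin of young neurons. A probe set counted as present above a signal of 50, which 18% of all values passed and none of 207 values of the TrpnX control probe sets did. Mki67 lay above 50 in 55 cells, where its lowest signal was 490, and not in 14, where its highest was 12.5. Tubb3 lay above 50 in 38 cells and not in 31, with 1 cell between 25 and 100. The crossing gave 30 cells with Mki67 only, 25 with both, 13 with Tubb3 only and 1 with neither. These classes are ranges of a gene each and not cell types. How many of all genes lie above 50 in no cell of a class or letter was not counted. Absence of a member from a group is therefore not read as particular to that member. The 13 Tubb3-only cells were the 7 of letter D, the 3 CP cells and 3 of letter X, and no D or CP cell had Mki67, so Tubb3-only cells can be compared with Mki67-positive cells of their own letter only in X. Letters A, B and X hold both kinds of Mki67-positive cell.

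The classes were set beside fixed marker lists. Of 10 neuron markers a median of 2 lay above 50 in Mki67-only cells, 5 in cells with both and 9 in Mki67-negative cells, and all 3 CP cells had all 10. The neuron list includes Tubb3 itself, so that marker follows the classes by definition. Of 10 apical progenitor markers the medians were 9, 6 and 1 in the same order, and 7 of the 10 were above 50 in no CP cell. No endothelial, microglial or erythroid marker was above 50 in any cell. Of 4 meningeal and pericyte markers, Col1a2 and Pdgfrb were above 50 in 2 cells each, Dcn in 3 and Col1a1 in none, all of these cells Mki67-positive and none with more than 1. Their part in the results was not tested. No cell of the Tubb3-only class had an interneuron marker above 50. Of 6 interneuron markers, Gad1, Gad2, Dlx2, Dlx5 and Lhx6 were each above 50 in 1 cell, always with both Mki67 and Tubb3. The most in any cell was 4. Between 3782 and 5804 genes per cell were above 50, with a median of 4949 in Mki67-positive and 4180 in Mki67-negative cells. The phe spike RNA, added at 20 copies per cell, read 8.25 ± 1.25 and 8.38 ± 1.20 on the log2 scale in these groups (SD over 55 and 14 cells), and thr, added at 5 copies, was above 50 in 25 of 55 and 2 of 14. This gap in detected genes stands beside every comparison by Mki67 below, and its part in them was not tested.

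Promoters are shown first for 4 members that were higher in Mki67-positive cells and hold an E2F motif, since E2F genes are read here beside E2F targets. The windows run from 250 bases before to 50 after a RefSeq start in GRCm38.p6, and capitals mark a match to TTTGGCGC, TTTCCCGC, TTTCGCGC or TTTGCCGC on either strand. These letters occur in 2.26% of 32851 such windows, and in at least 1 window of 704 of 27025 genes. E2f3 and Tfdp1 have 2 windows each. The other window of E2f3 (chr13:29984342-29984641) holds no match, and that of Tfdp1 overlaps the one shown and holds the same letters.
E2f3, chr13:29986014-29986313, minus strand: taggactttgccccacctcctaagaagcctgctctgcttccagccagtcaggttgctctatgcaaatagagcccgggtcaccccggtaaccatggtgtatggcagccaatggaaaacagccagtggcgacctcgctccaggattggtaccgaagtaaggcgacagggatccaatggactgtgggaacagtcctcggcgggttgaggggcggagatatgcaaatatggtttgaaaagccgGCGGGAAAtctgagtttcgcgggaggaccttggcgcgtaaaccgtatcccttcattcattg
E2f7, chr10:110745189-110745488, plus strand: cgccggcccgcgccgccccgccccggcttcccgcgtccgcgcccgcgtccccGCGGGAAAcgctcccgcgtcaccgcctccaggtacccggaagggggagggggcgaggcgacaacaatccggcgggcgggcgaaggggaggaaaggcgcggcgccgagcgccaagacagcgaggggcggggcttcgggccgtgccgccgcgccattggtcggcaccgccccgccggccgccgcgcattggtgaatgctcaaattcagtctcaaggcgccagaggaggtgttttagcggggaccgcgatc
Rbl1, chr2:157204485-157204784, minus strand: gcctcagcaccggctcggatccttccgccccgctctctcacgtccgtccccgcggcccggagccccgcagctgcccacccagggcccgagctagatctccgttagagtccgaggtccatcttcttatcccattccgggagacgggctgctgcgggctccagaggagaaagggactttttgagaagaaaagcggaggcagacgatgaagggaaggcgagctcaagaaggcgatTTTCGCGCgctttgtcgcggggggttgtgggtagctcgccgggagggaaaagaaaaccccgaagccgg
Tfdp1, chr8:13338501-13338800, plus strand: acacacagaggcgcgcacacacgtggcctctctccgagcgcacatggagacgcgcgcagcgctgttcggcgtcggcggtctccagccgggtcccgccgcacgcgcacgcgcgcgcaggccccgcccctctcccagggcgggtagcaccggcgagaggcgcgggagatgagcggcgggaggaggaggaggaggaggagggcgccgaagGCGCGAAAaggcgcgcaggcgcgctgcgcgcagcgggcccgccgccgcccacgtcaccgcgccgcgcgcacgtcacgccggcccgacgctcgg
Counted from the start, the last base of the match is at -4 in E2f3, -11 in Rbl1, -36 in Tfdp1 and -191 in E2f7. The windows of E2f1, E2f8, Rbl2 and Tfdp2 hold none of these letters. Those listed for E2f1, E2f8 and Tfdp2 lie inside the span of the gene and not at its outer end. E2f5 and Rb1 are named only. Among the genes of the lists used below, the motif stood in 13 of 26 S phase targets with a window and in 1 of 15 genes of G2 and mitosis. A match is a run of letters and not a bound site.

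By Mki67, 7 of the 10 members were higher by at least 1 log2 unit in the 55 positive cells than in the 14 negative ones, and none was lower. All values under 50 were set to 50 before log2 was taken, and 7.75% of all genes were higher and 3.91% lower by this measure. Among 9574 genes above 50 in at least 5 cells, 14.7% were higher and 7.41% lower. The median of the members was 1.27 against 0 for all genes. The members past the threshold, from the largest difference down, were Rbl1, E2f5, E2f7, Tfdp2, E2f8, E2f3 and Tfdp1, while Rbl2, Rb1 and E2f1 were under it. Between Mki67-only and Tubb3-only cells the same 7 were past 1 log2 unit, where 9.06% of all genes were higher and 5% lower. A share of cells is given with its exact Clopper-Pearson 95% interval and a difference of shares with its Newcombe interval, both of which cover counting error only.

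**Figure D1:**
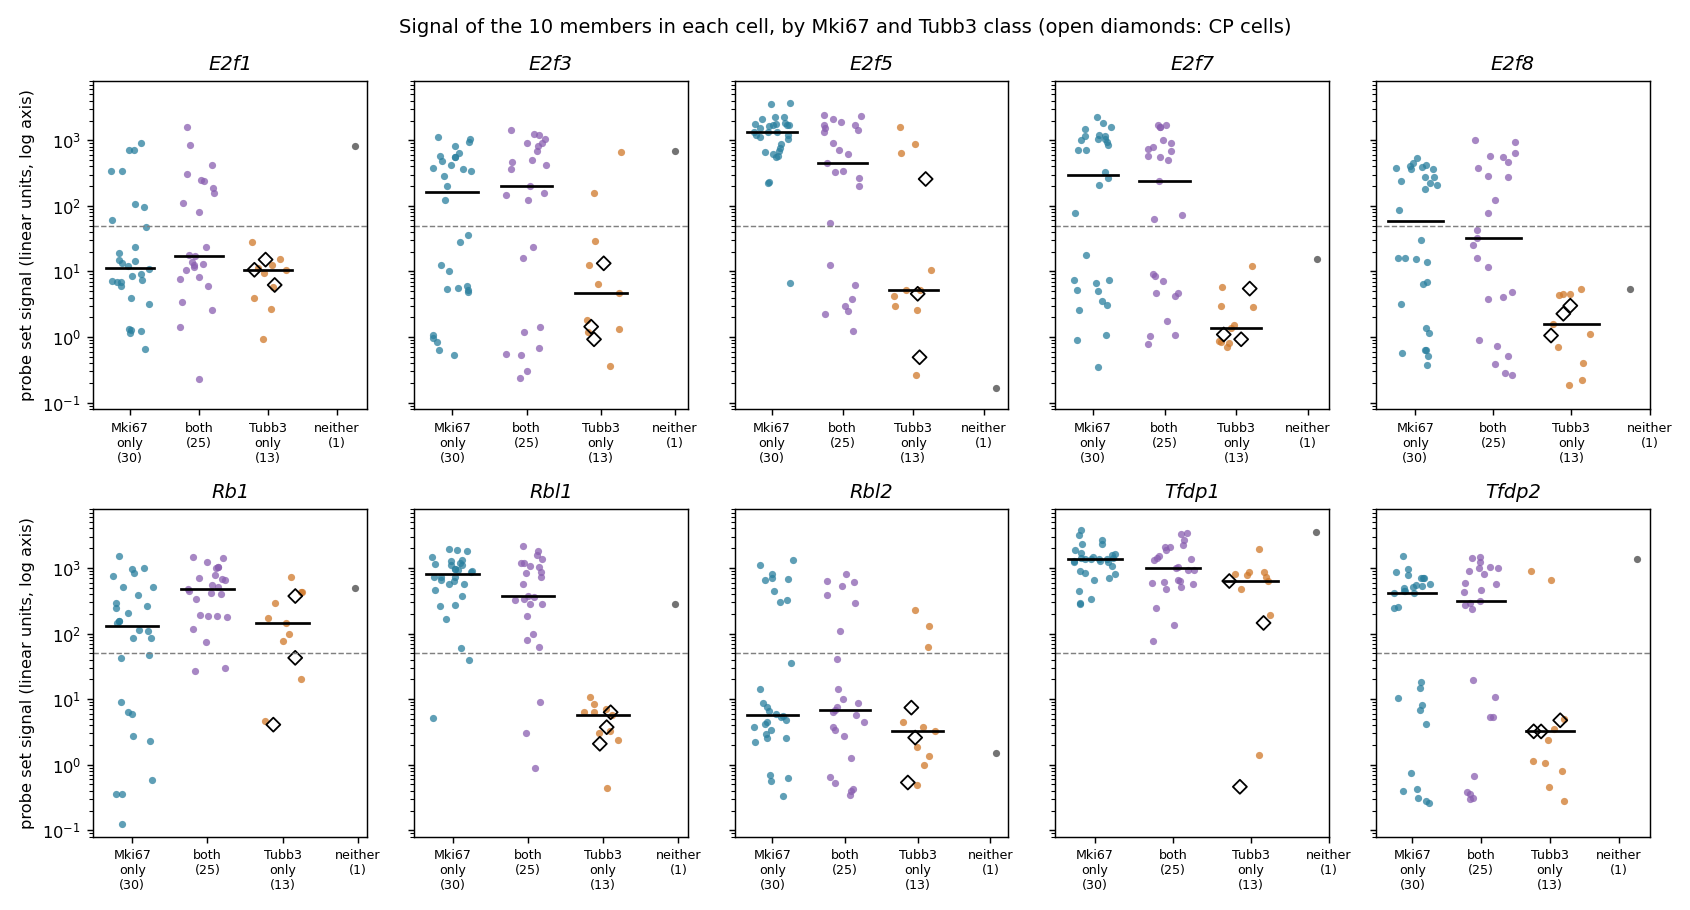
Probe set signal of the 10 members in each of the 69 cells (log axis), by Mki67 and Tubb3 class; each point is a cell, black bars are medians, the dashed line is 50 and open diamonds are CP cells. E2f1, E2f7, E2f8 and Rbl1 have no Tubb3-only cell above the line, while Rb1 and Tfdp1 have 9 and 11 of 13 there.

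E2f1, an activator that drives S phase entry, ranged from 0.233 to 1590 in Mki67-positive cells with a median of 13.4, and was above 50 in 18 of 55 (32.7%, 20.7 to 46.7). In Mki67-negative cells it ranged from 0.924 to 814 with a median of 10.6, and was above 50 in 1 of 14. The groups overlap, and the share differed by 25.6 points, with an interval from -1.08 to 40.003 that includes 0. By class, E2f1 was above 50 in 8 of 30 Mki67-only cells, 10 of 25 cells with both and none of 13 Tubb3-only cells, where its highest signal was 27.8. By a limit of 3 counts, 0 of 13 allows a share of up to 23.1%, and the exact interval reaches 24.7%. The difference in mean log2 signal between Mki67-positive and negative cells was 0.52.

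E2f3, the other activator, ranged from 0.236 to 1451 with a median of 200 in Mki67-positive cells, and was above 50 in 32 of 55 (58.2%, 44.1 to 71.3). In the 14 negative cells the range was 0.357 to 676, the median 5.56, and 3 cells were above 50. The share was 36.8 points higher in positive cells (7.47 to 55.1) and the mean log2 signal 1.27 higher. It was above 50 in 16 of 30, 16 of 25 and 2 of 13 cells with Mki67 only, both and Tubb3 only. At least 1 activator was above 50 in 37 of the 55 Mki67-positive cells, both were in 13, and 18 had neither.

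E2f5, an E2F that represses together with pocket proteins, was the E2F with the largest difference between Mki67-only and Tubb3-only cells, 3.25 in mean log2 signal. Its signal ran from 6.75 to 3719 with a median of 1323 in Mki67-only cells, from 1.23 to 2433 with a median of 445 in cells with both, and from 0.259 to 1609 with a median of 5.16 in Tubb3-only cells. It was above 50 in 29 of 30, 18 of 25 and 4 of 13. The share in cells with both was 24.7 points lower than in Mki67-only cells (-44.4 to -5.54), although both classes carry Mki67. Within letters A and B it was 7 of 11 against 10 of 10 cells, and within letter X 6 of 8 against 19 of 20, where the interval of the difference (-54.3 to 5.79 points) includes 0. The 4 Tubb3-only cells with E2f5 read 257, 630, 863 and 1609, so the classes overlap in range. Against Mki67-negative cells the mean log2 signal of all Mki67-positive cells was 2.62 higher. A second E2f5 probe set was above 50 in 53 cells, 51 of them shared with the 51 of the first, and their log2 signals had a Pearson r of 0.92 over 69 cells. The remaining E2f5 probe set did not follow these: it was above 50 in 62 cells, with signals from 10.5 to 148, and its r with the first was 0.05. It was above 50 in 50 of 55 Mki67-positive and 12 of 14 negative cells, with mean log2 signals of 6.27 and 6.17, so the difference of E2f5 by Mki67 stands in the first 2 sets and not in this one.

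The atypical repressors were above 50 in Mki67-positive cells of these 69 and in no other. This was not particular to them, since Ccna2, Ccnd1 and Foxm1, read below, were also above 50 in no Mki67-negative cell. How many of all genes have this pattern was not counted. E2f7 ranged from 0.349 to 2282 with a median of 269 in the 55 positive cells and was above 50 in 33 (60%, 45.9 to 73.0), while in the 14 negative cells its highest signal was 15.4. E2f8 ranged from 0.262 to 993 with a median of 32.1 and was above 50 in 26 (47.3%, 33.7 to 61.2), against a highest signal of 5.42 in negative cells. By a limit of 3 counts, 0 of 14 allows a share of up to 21.4%, and the exact interval reaches 23.2%. The share differed by 60 points for E2f7 (34.8 to 71.9) and by 47.3 points for E2f8 (22.3 to 60.2). The mean log2 signal was 2.27 and 1.28 higher in positive cells, sizes that depend on the floor since every negative cell sits at it.

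Within Mki67-positive cells no difference in the atypical pair between cells with and without Tubb3 was detectable with these cell numbers. E2f7 was above 50 in 18 of 30 Mki67-only cells and 15 of 25 with both, which are the same share with an interval of the difference from -24.7 to 24.2 points. E2f8 was above 50 in 15 of 30 and 11 of 25, so that cells with both differed by -6 points (-30.2 to 19.3). Both genes were above 50 in 18 of the 55 cells, at least 1 in 41, and 14 had neither. Of the 18 cells with E2f1, 10 had E2f7 and 10 had E2f8.

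The 3 pocket proteins each had a pattern of their own. Rbl1 ranged from 0.899 to 2179 with a median of 734 in Mki67-positive cells and was above 50 in 50 of 55 (90.9%, 80.0 to 97.0). In negative cells it ranged from 0.436 to 278 with a median of 6.04 and was above 50 in 1 of 14, a difference of 83.8 points (57.3 to 91.6) and the widest among the members. No Tubb3-only cell exceeded 10.9, while 28 of 30 Mki67-only cells and 22 of 25 with both were above 50. The mean log2 signal was 3.13 higher by Mki67.

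Rb1, the retinoblastoma gene itself, was spread over both classes. It was above 50 in 42 of 55 Mki67-positive cells (76.4%, 62.98 to 86.8), with a range from 0.126 to 1501 and a median of 242. In negative cells 10 of 14 were above 50 (71.4%, 41.9 to 91.6), with a range from 4.08 to 720 and a median of 160. The difference of 4.94 points has an interval from -16.2 to 32.6, wide enough to hold a difference either way. The cells with both markers stood above either neighbour: their median was 484, against 130 in Mki67-only and 147 in Tubb3-only cells, and 23 of 25 were above 50 against 19 of 30 and 9 of 13. The share was 28.7 points higher in cells with both than in Mki67-only cells (6.16 to 47.4), with a mean log2 signal 1.32 higher. The mean was also higher within letters A and B (0.97, 9 of 11 against 4 of 10 cells above 50) and within letter X (1.49, 8 of 8 against 15 of 20, with an interval of the difference in share from -10.3 to 46.9 points that includes 0), while letter C had no Mki67-only cell.

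Rbl2, the pocket protein known from resting cells, was above 50 in 16 of 55 Mki67-positive cells (29.1%, 17.6 to 42.9) and 3 of 14 negative ones (21.4%, 4.66 to 50.8). Medians were 6.29 and 2.95, both under the threshold, and the share differed by 7.66 points (-20.5 to 26.7). Where present it read 111 to 1313 in positive cells and 62.5, 130 and 228 in the negative ones. At least 1 pocket protein was above 50 in 53 of the 55 positive cells and all 3 were in 14. All 16 Mki67-positive cells with Rbl2 had Rbl1 too, near the share of Rbl1 in all positive cells (50 of 55). None of the 3 Mki67-negative cells with Rbl2 had Rbl1, which was above 50 in 1 of 14.

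Tfdp1, a DP partner, was above 50 in all 55 Mki67-positive cells, from 76.5 to 3767 with a median of 1282, and in 12 of 14 negative cells, from 0.461 to 3500 with a median of 683. The ranges overlap almost fully, and the mean log2 signal was 1.14 higher in positive cells. This difference was 0.12 within letter X, 0.81 within letters A to D, and under 1 also after quantile normalization or scaling to a common trimmed mean. Tfdp2, the second partner, was above 50 in 34 of 55 positive cells (61.8%, 47.7 to 74.6), with a range from 0.264 to 1498 and a median of 412. Of 14 negative cells 3 were above 50, at 644, 914 and 1385, and the others left a median of 3.22. Its share was 40.4 points higher in positive cells (11.1 to 58.5) and its mean log2 signal 1.31 higher.

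**Figure D2:**
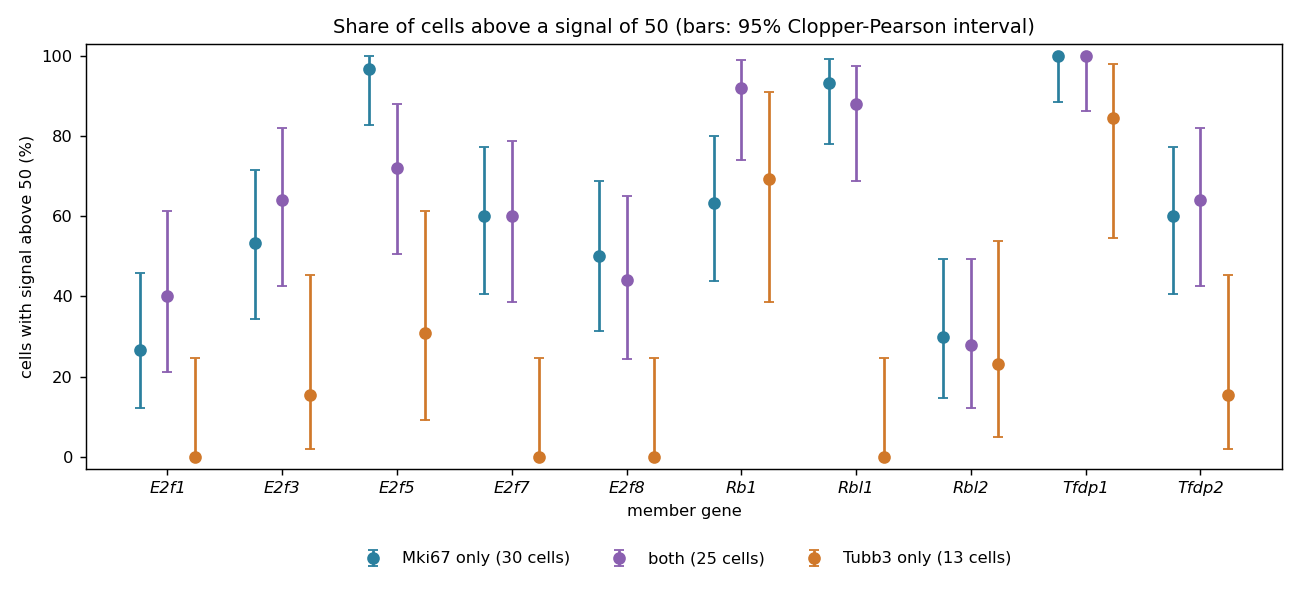
Share of cells with signal above 50 for each member (y axis, percent) in Mki67-only (30), both (25) and Tubb3-only cells (13); points are shares and bars 95% Clopper-Pearson intervals, which cover counting error only. The shares of E2f1, E2f7, E2f8 and Rbl1 are 0 in Tubb3-only cells, Rb1 is highest in cells with both, and Rbl2 lies between 23.1% and 30% throughout.

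The members were also counted per cell. Of the 10, Mki67-positive cells had a median of 7 above 50 with a range from 3 to 9, and Tubb3-only cells a median of 2 with a range from 0 to 5. Of all 18194 genes, medians of 4949 and 4190 were above 50 in the same groups. No cell had all 10. Letter X alone, with 28 Mki67-positive and 3 Tubb3-only cells, gave 5 members past 1 log2 unit by Mki67, with differences of 3.46 for Rbl1, 2.89 for E2f5, 2.27 for Tfdp2, 2.21 for E2f7 and 1.44 for E2f8. In letter X 9.34% of all genes were higher and 10.6% lower. Letters A to D, where 7.96% of all genes were higher and 4.24% lower, gave 5 members, with 2.83 for Rbl1, 2.33 for E2f7, 2.14 for E2f5, 1.40 for E2f3 and 1.12 for E2f8. The Mki67-negative cells of these letters are the 7 of letter D and 1 of letter C. Letter and class can therefore hardly be told apart in this subset. Quantile normalization moved the split of all genes by Mki67 to 6.21% higher and 5.49% lower, and between Mki67-only and Tubb3-only cells to 7.4% and 6.73%. It left 6 and 7 members higher and none lower.

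**Figure D3:**
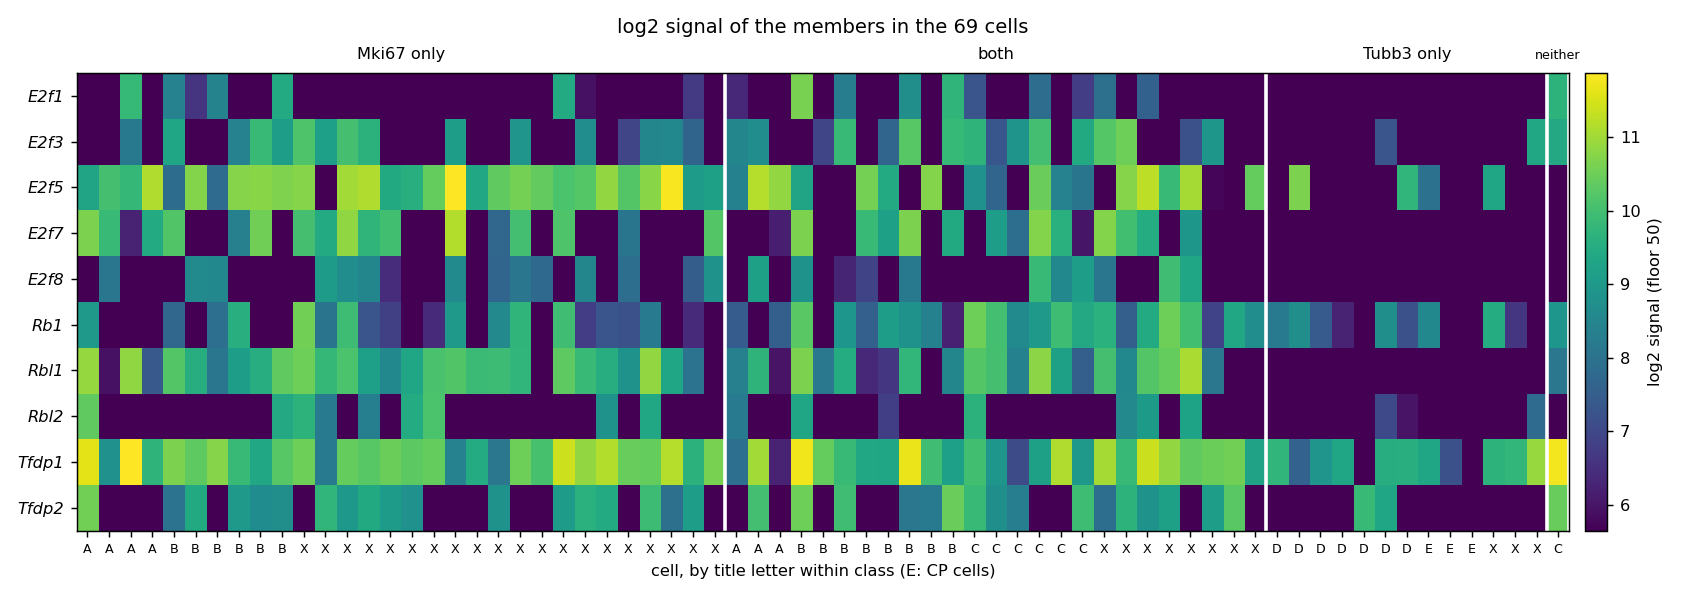
log2 signal (floor 50, colour) of the 10 members (lines of the map) in the 69 cells (x axis, by title letter), grouped by class. Tfdp1 is above the floor in 67 cells, and the 13 Tubb3-only cells are at the floor throughout for E2f1, E2f7, E2f8 and Rbl1.

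E2f5 and Rbl1 were lower by at least 1 log2 unit in the 38 Tubb3-positive cells, by 1.99 and 1.61 in mean log2 signal, and no member was higher, where 3.07% of all genes were lower and 1.87% higher. Each was above 50 in 22 of 38 Tubb3-positive and 29 of 31 Tubb3-negative cells, a share 35.7 points lower (-52.0 to -15.5). Rb1 was the only member with a positive difference, 0.80, with 32 of 38 against 20 of 31 cells above 50, a difference of 19.7 points with an interval from -0.81 to 39.1, and this difference passed 1 after quantile normalization (1.07), in letter X (1.01) and in letters A to D (1.14). The other 7 differed by -0.11 to -0.88, and the sign for E2f1, E2f8 and Tfdp1 was not the same in every alternative. For E2f1 the difference was -0.83 in letters A to D and 0.13 in letter X. Of the 38 Tubb3-positive cells 13 are Mki67-negative, so this comparison and that by Mki67 share cells. Between cells with both markers and Mki67-only cells, the mean log2 difference was -0.64 for Rbl1, under the threshold, and -1.56 for E2f5. Rbl1 was above 50 in 22 of 25 and 28 of 30 of these cells.

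The CP cells were read beside the VZ/SVZ cells. They are also 3 of the 14 Mki67-negative cells, so this comparison and that by Mki67 share cells. In CP, 8 of the 10 members were lower by at least 1 log2 unit and none was higher, where 13% of all genes were lower and 5.49% higher. Among genes above 50 in at least 5 cells, 24.7% were lower. The median of the members was -1.82. Rb1 was among the 8, at -1.21, but differed by only -0.73 without the second or without the third CP cell, which leaves 7 members, and was under 1 in 6 of 9 alternatives. The signals of the 3 CP cells, in the order of their titles, were 257, 0.491 and 4.56 for E2f5, 373, 4.08 and 42.6 for Rb1, and 632, 145 and 0.461 for Tfdp1. For the other 7 members no CP cell exceeded 15.2, and the exact interval for 0 of 3 cells reaches 70.8%. In VZ/SVZ cells Rbl1 was above 50 in 51 of 66 with a median of 569, E2f5 in 50 with a median of 814, and Tfdp1 in 65 with a median of 1149.

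For Rbl1 and Tfdp1 the interval of the difference in share lay below 0, from -85.7 to -19.97 points and from -77.7 to -3.85. For the other 8 it included 0. The CP cells also had fewer genes above 50, with a median of 3988 against 4777, and after quantile normalization all genes split into 10.2% higher and 9.65% lower while 7 members stayed lower. The part of this gap in the result was not tested. In the 10 Tubb3-only cells of the VZ/SVZ E2f1, E2f7, E2f8 and Rbl1 were above 50 in none, Tfdp1 in 9 and Rb1 in 8. The share of all genes above 50 in none of these cells was not counted.

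**Figure D4:**
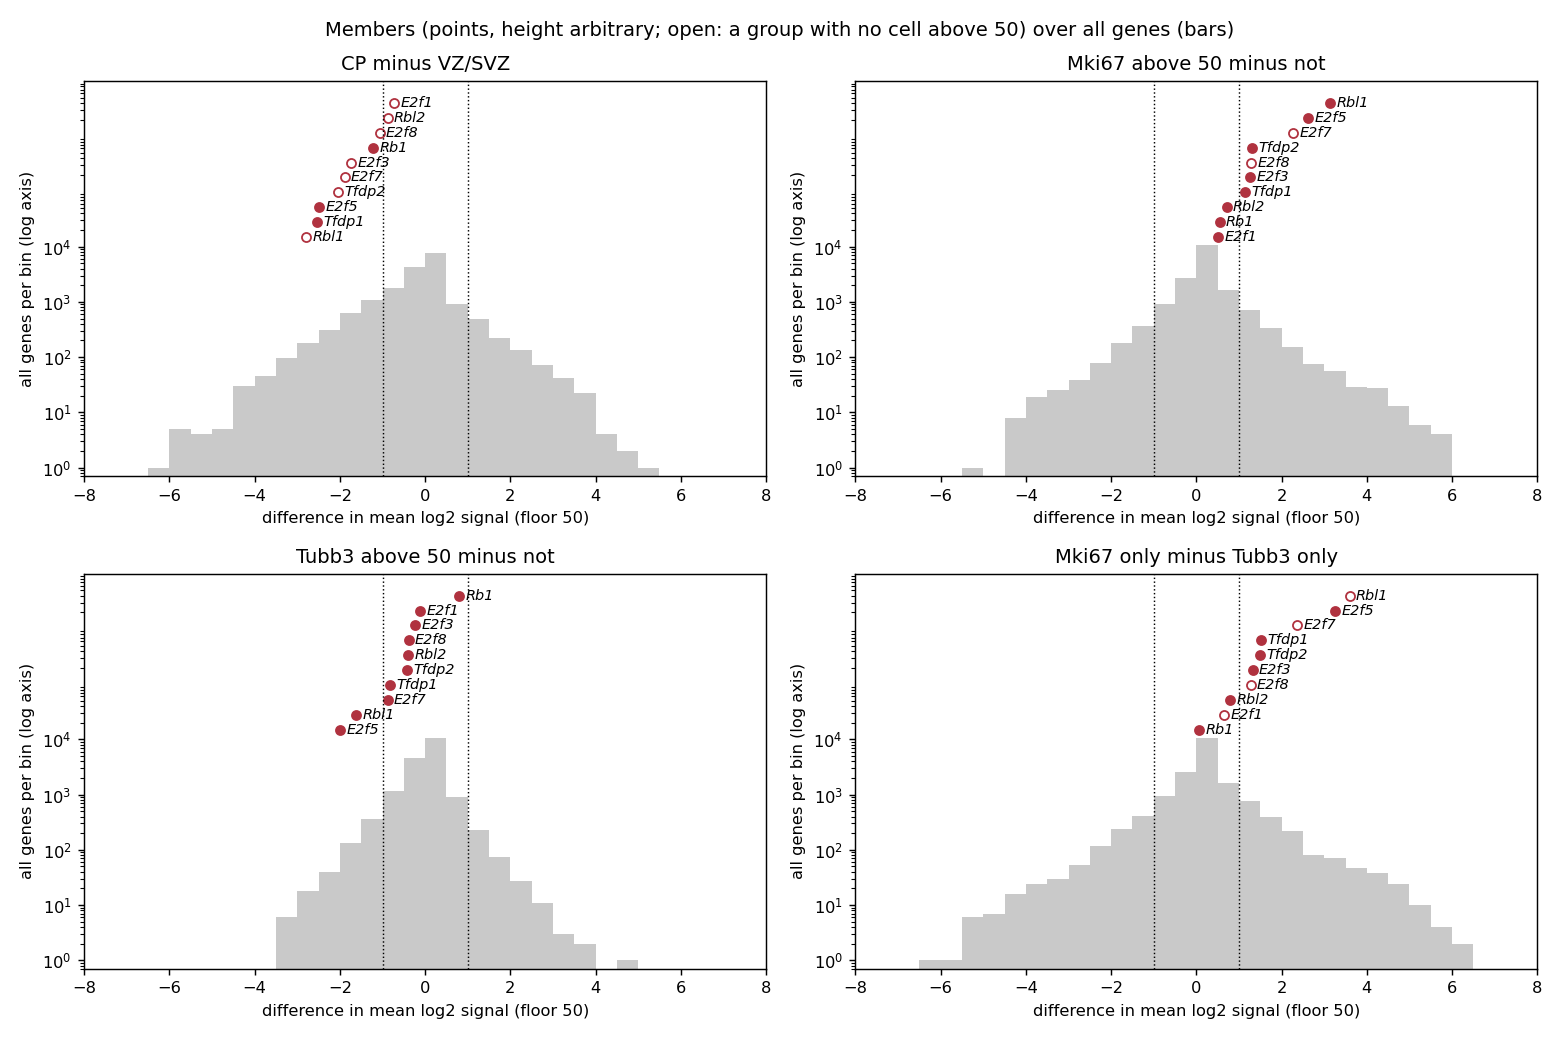
Difference in mean log2 signal (x axis, floor 50) of the members (points, height arbitrary, open where a group has no cell above 50) over the distribution for all 18194 genes (grey bars, log axis); dotted lines mark 1 log2 unit either way. The members lie right of 0 by Mki67 (0.52 to 3.13) and left of it in CP (-0.73 to -2.79).

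The title letters hold different classes, and shares by letter are given with that in view. Rbl1 was above 50 in 7 of 7 A cells, 13 of 14 B, 7 of 7 C, none of 7 D and 24 of 31 X. E2f5 was above 50 in 7, 10, 5, 2 and 26 of these cells, in the same order. Letter C, 6 of whose 7 cells had both markers, had the most E2f3 (6 of 7) and had Rb1 throughout (7 of 7, from 396 to 1440). Letter D had no cell with E2f1, E2f7, E2f8 or Rbl1, which allows up to 42.9% each by the limit of 3 counts, but 6 of 7 with Rb1 and 6 of 7 with Tfdp1. The share of all genes absent from letter D was not counted.

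E2f1 was above 50 in 2 of 7 A, 8 of 14 B, 4 of 7 C and 5 of 31 X cells. Among Mki67-positive cells alone, letters A to C had it in 13 of 27 and letter X in 5 of 28, a difference of 30.3 points (5.44 to 50.8) that was looked at after the values were seen. For the other 9 members this interval included 0. The intervals between letters A and B and between B and C included 0 for all 10 members.

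Within the Mki67-positive cells the members were set beside a list of S phase genes known as E2F targets and a list of genes of G2 and mitosis. The mean log2 signal of 30 E2F targets of S phase entry was 8.73 ± 0.67 in the 18 cells with E2f1 above 50 and 8.06 ± 0.73 in the 37 without (SD over cells). For E2f8 it was 8.58 ± 0.85 in 26 and 8.009 ± 0.59 in 29 cells. The mean of 17 genes of G2 and mitosis in the latter split was 10.17 ± 1.28 and 10.27 ± 1.15. The cells with and without E2f1 had medians of 5038 and 4800 genes above 50, and those with and without E2f8 of 4902 and 4949. E2f1 and E2f8 had the largest gaps in the S phase mean. It was also higher with than without each other member that splits these cells, by 0.007 for Rbl2 up to 0.37 for Rbl1.

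Across the 55 cells the correlation with the S phase mean was highest for E2f8 (Pearson r 0.47), E2f1 (0.41) and Tfdp1 (0.41), and lowest for Rbl2 (0.01) and E2f5 (-0.08). For Tfdp1 the r with the G2 and mitosis mean was -0.26. In the 30 Mki67-only cells r with the S phase mean was 0.37 for E2f8, 0.21 for E2f1 and 0.50 for Tfdp1. These describe cells that share amplification and array noise, and the 2 list means had an r of -0.31 with each other.

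**Figure D5:**
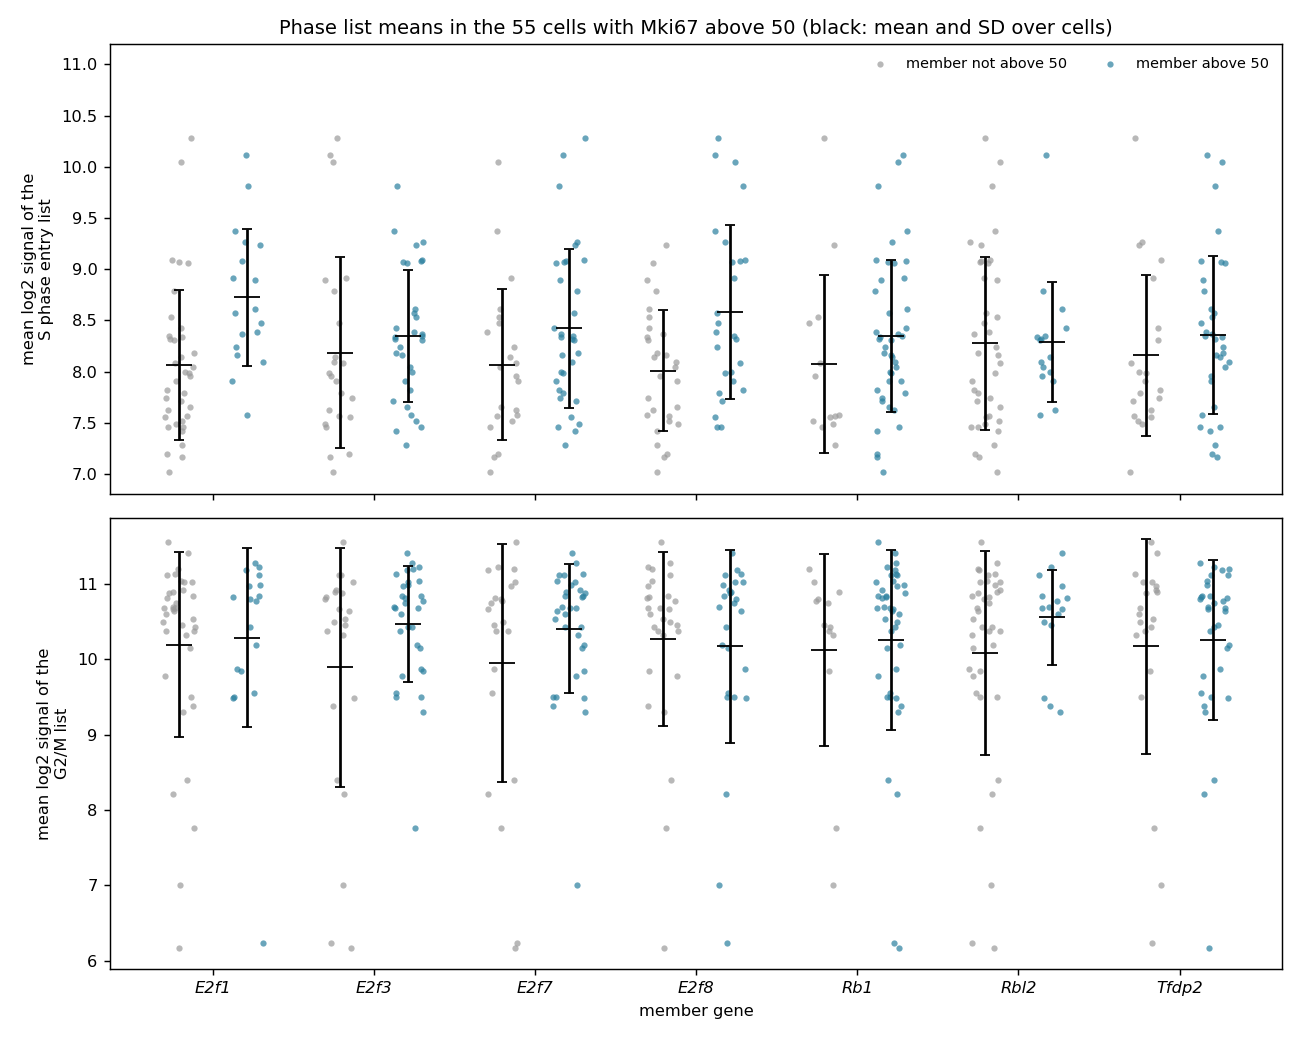
Mean log2 signal (y axis, floor 50) of 30 S phase entry targets (top) and 17 G2/M genes (bottom) in the 55 Mki67-positive cells, split by whether a member is above 50; points are cells and black marks the mean and SD. The S phase mean is higher with each member shown, most for E2f1 (8.73 against 8.06) and E2f8 (8.58 against 8.009), with overlapping points. The gap is least for Rbl2 (8.286 against 8.278).

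The rest of the pathway was read from fixed lists. By Mki67, 7.75% of all genes were higher by at least 1 log2 unit, and 14.7% of genes above 50 in at least 5 cells. These shares stand beside each list count by Mki67 here and below. Of the 30 S phase targets, 18 were higher by at least 1 log2 unit in Mki67-positive cells and none lower, with a median of 1.48. The largest differences were in Rrm2, a ribonucleotide reductase subunit (4.36, above 50 in 53 of 55 and 3 of 14 cells), the helicase subunits Mcm3 (3.31) and Mcm5 (3.26), and Rrm1 (2.96). All 17 genes of G2 and mitosis were higher, with a median of 4.72, led by Top2a (5.98) and Ube2c (5.94). Mki67, which sets the split, is itself a gene of dividing cells, so this list is not independent of it. In CP, 19 of the 30 S phase targets and all 17 of the others were lower, where 13% of all genes were.

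Of 10 genes in a list of cyclins, cyclin-dependent kinases and their activating phosphatase Cdc25a, 5 were higher by Mki67: Ccna2 (5.34, above 50 in 51 of 55 and 0 of 14 cells), Cdk6 (4.64), the D cyclins Ccnd2 (4.30) and Ccnd1 (2.67), and the third D cyclin Ccnd3 (1.37). Cdk4, which pairs with the D cyclins and was named after its values were seen, was above 50 in all 69 cells, with a difference of 0.47. Of 7 CDK inhibitors, 3 were higher, namely Cdkn2c (2.45), Cdkn2d (2.13) and Cdkn1b (1.43), and Cdkn1c was lower by 1.25, with 6 of 55 and 6 of 14 cells above 50. Cdkn2a and Cdkn2b were above 50 in no cell.

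Of the E2Fs outside the members, E2f6 was higher by Mki67 (1.09, 39 of 55 and 7 of 14 cells), E2f4 differed by 0.41 (34 and 5 cells) and E2f2 by 0.53 (8 and 0 cells). Of 7 genes of the MuvB complex, its partner B-Myb and Foxm1, only Foxm1 was past 1 log2 unit (2.02, 39 of 55 and 0 of 14 cells). Of 9 corepressors that pocket proteins recruit, Rbbp7 (1.93) and Hdac1 (1.92) were higher, and Hdac2 was above 50 in all 69 cells with a difference of -0.18.

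The genes whose log2 signal was most like each member over the 66 VZ/SVZ cells were taken from 8322 genes above 50 in at least 10 of them. Each r is thus picked as among the highest of many. The cells include Mki67-positive and negative ones, and the part of that split in r was not tested. The closest match of any member was Gmnn, the replication licensing inhibitor geminin, for Rbl1 (Pearson r 0.74), followed by Hmgb2 (0.70) and H2az1 (0.69). For E2f5 they were Id4 (0.67), Ddah1 (0.65) and Sox21 (0.65), and for E2f8 Mcm10 (0.57), Ccne1 (0.52) and Cdca5 (0.50). E2f7 had Pask (0.54), Ing5 (0.53) and Tk1 (0.53), and Tfdp1 had Mcm2 (0.54), Golga7 (0.54) and Fth1 (0.52). For E2f1, E2f3, Rb1, Rbl2 and Tfdp2 the highest r was 0.52 with 2310011J03Rik, 0.51 with Aldh18a1, 0.50 with Exosc7, 0.56 with Ift80 and 0.46 with Brpf3. Between members themselves r had a median of 0.18 over 45 pairs and a range from -0.18 to 0.43. In the 55 Mki67-positive cells alone the median was 0.13 and the range from -0.27 to 0.40.

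Of the other probe sets, beside those of E2f5 given above, these were looked at. Those beside the one used for Rb1 and E2f8 were above 50 in no cell, and those for E2f3 and Rbl2 in 2 cells each. A second E2f1 probe set was above 50 in 16 cells, 12 of them among the 19 of the first. A second Rbl1 probe set was above 50 in 9 cells, 8 of them Mki67-only and none Mki67-negative. E2f1 has 3 probe sets in all and Rbl1 has 4, and the signals of the rest are not given here. The other Tfdp2 probe sets were above 50 in 21, 12 and 4 cells, and r with the first was 0.25 for the set with 21 and 0.14 for the set with 12. With the mean over all probe sets of a gene, 3 members (E2f5, E2f7 and Tfdp1) were past 1 log2 unit by Mki67. Rbl1 fell from 3.13 to 0.91 by this measure.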

How the data were processed

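Each sample is 1 cell on 1 Affymetrix array. The deposited table holds a linear intensity for every probe set and cell. MAS5 is the tool that the submitters' processing notes name, and its version and scaling are not given in the sources used here. Per the labels' protocols, spike RNAs were added to each cell and its cDNA was amplified before biotin labelling.

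The platform annotation named 1 gene for 34958 of 45101 probe sets, several for 932 and none for 9211. Only the first kind was used, and the brightest probe set by mean log2 over the cells stood for its gene. All 69 value columns were used and no pair was identical (0 duplicates). Values under 50 were set to 50 before log2 was taken. The threshold of 1 log2 unit sets a size and tests nothing. Because no label names an animal, cells were not treated as replicates, and neither p-values nor standard errors are given. The CP cells were grouped by source label, as their description label says VZ/SVZ. Differences were taken over all 18194 genes, which gives the background shares. The calculation was checked on shuffled values with a known shift added to bright genes only. That check does not cover genes that lie mostly at the floor, as several members do.

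The members, lists and classes were chosen with earlier results of these data known. The genes named are the members, up to 4 per list and comparison with the largest difference, and the 3 genes most like each member. Cdk4, Ccnd3, Hdac2, Cdkn2a and Cdkn2b were named after their values were seen. Alternatives were other floors (25, 100 and the 95th percentile of TrpnX, 6.26), quantile normalization, a common 2% trimmed mean, the mean over probe sets, other class markers, subsets of cells, and a background of genes above 50 in at least 5 cells. Promoter windows are RefSeq's. Python 3.11.15, numpy 2.4.6, pandas 2.3.3, scipy 1.17.1 and matplotlib 3.10.9 were used.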

Additional observations from a re-analysis of the deposited data

Results flagged for a closer look

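In title letters with 4 to 10 cells, 4 of 30 combinations of member and letter had a cell far from the rest, with a gap to its neighbour that took up most of the range. The critical values used would mark about 1 in 20 groups by chance if values were normally distributed, and the rate for values like these, many of them at the floor, was not tested. In letter A, E2f1 read 907 in 1 of 7 cells. In letter C, Rbl2 read 805 in 1 of 7 cells, the only cell of that letter above 50. In letter D, E2f3 read 155 in 1 of 7 cells and Rbl2 read 130 in the same cell, which had Tubb3 and no Mki67. In each case most other cells of the letter were at the floor.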

How the results depend on the processing

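Of 24 member differences past 1 log2 unit over the 4 comparisons, all 239 values under the alternatives kept their sign, 204 were still past 1, and 9 differences were past it in every alternative. The count of members past 1 by Mki67 was 4 with a floor of 100 (4.96% of all genes higher). With the mean over all probe sets, which takes in the dim sets, the count was 3 by Mki67 (4.34% of all genes higher), 3 in CP (7.24% lower), 1 by Tubb3 (1.42% lower) and 4 between Mki67-only and Tubb3-only cells (5.27% higher). By Tubb3 it was 4 (1 higher, 3 lower) with the TrpnX floor (5.53% and 8.27% of all genes) and 4 in letters A to D (2.29% and 3.68%), an alternative chosen after seeing the data; the cause was not tested. Leaving out a CP cell in turn gave 7 to 8 members lower in CP, and Rb1 fell under 1 without either of 2 of these cells. Among 9574 genes above 50 in at least 5 cells 5.83% were lower by Tubb3 and 17.2% higher between Mki67-only and Tubb3-only cells, and quantile normalization moved the median difference of these genes in CP from -0.37 to -0.18. Top2a in place of Mki67 marked 56 cells, 55 of them shared, and left 7 members higher. Tfdp1 by Mki67 ranged from 0.12 to 1.57 over the alternatives. The exact interval for a count of 0 reaches 24.7% in 13 cells, 23.2% in 14 and 70.8% in the 3 CP cells. No paired analysis was possible because no label ties cells of different groups to the same animal and the result comes from no test.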

Other observations

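A VZ/SVZ cell of letter C had neither Mki67 (4.55) nor Tubb3 (12.8) above 50, and it was singled out after its values were seen. It was the only Mki67-negative cell with E2f1 (814) or Rbl1 (278) above 50, and it also had E2f3 (676), Rb1 (487), Tfdp1 (3500, the second highest of the 69 cells) and Tfdp2 (1385), but not E2f5, E2f7, E2f8 or Rbl2. Of the 30 S phase targets 17 were above 50, within the range of 9 to 29 in Mki67-positive cells, among them Pcna (5338) and Mcm2 (3481). Of the 17 genes of G2 and mitosis none was above 50, where Mki67-positive cells had 4 to 17. It had 7 of 8 intermediate progenitor markers, among them Eomes (1403), a transcription factor of intermediate progenitors, 5 of 10 neuron markers, and 4085 genes above 50. It is 1 cell, and nothing replicates it.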
